A study of Mus musculus with 16 samples.

Results

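The genes Zic1, Zic4, Zic5 and Zic2 were followed at 483 of the 1203687 CpGs that were read at least 10 times in all 16 libraries of the study. The CpGs were those lying from 5 kb before the start to the end of each gene in the GENCODE M21 annotation of the mouse build GRCm38. The 4 genes were chosen because the CpGs there had different methylation levels in the clonal lines of MEF-1 and MEF-2, so that difference is described here and not tested. MEF-1 and MEF-2 are immortalised mouse embryonic fibroblasts, each from a C57BL/6J embryo at E13.5, that were passaged until they had come through crisis. Each parental line was sequenced once by target capture bisulfite sequencing, which reads methylated cytosines as C and all others as T. Each family also had 7 clonal lines, every one grown from a single sorted cell of the parental line. By the methods of the study MEF-1 is male and MEF-2 female, so sex, embryo and culture history cannot be told apart in any difference between the families. Lines of a family share an embryo and a culture, and their spread is a spread between clones of that culture.

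The Zic genes encode transcription factors with C2H2 zinc fingers related to those of the Gli and Glis proteins. They act in the dorsal neural tube, the neural crest and the cerebellum, and Zic2 is known for its part in forebrain patterning. The genes lie in the genome as head-to-head pairs that are read away from each other. Methylated CpGs at a CpG-rich start usually go with a silent promoter, while methylation inside a gene has no such fixed meaning.

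The libraries held between 59243669 and 90633091 methylation calls, and a CpG of the shared set was read 32.0 to 47.6 times on average. Methylation within 1 kb of the start of fibroblast genes was between 1.13% and 21.4% for the 4 of 9 genes measured, against 43.3% to 78.6% for 3 measured blood genes. The 4 epithelial genes lay between 15.7% and 88.7%, and the 4 neural genes between 4.17% and 39.9%. Of all CpGs in the shared set, 11.6% were called between the families as higher in MEF-1 and 8.53% as higher in MEF-2 (quasi-binomial test, adjusted p below 0.05). MEF-1 clonal line 2 and MEF-2 clonal line 3 had relative coverage of 0.841 and 0.779 on chromosome 14, where Zic5 and Zic2 lie. The other libraries were between 0.996 and 1.05 there.

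Zic1 (ENSMUSG00000032368.14, chr9:91358058-91365810, minus strand) and Zic4 (ENSMUSG00000036972.14, chr9:91362413-91389348, plus strand) overlap. Their annotated starts are 3397 bp apart, and each start lies inside the other gene. All 135 CpGs counted for Zic1 were therefore also counted among the 280 of Zic4. These were 32.5% and 34.4% of the CpGs that the reference sequence holds there, and the median CpG was read 29 times per library in both genes.

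At Zic1 the mean level of the 7 MEF-1 clonal lines ran from 31.1% to 34.7% with a median of 32.4%, and that of the 7 MEF-2 clonal lines from 1.45% to 2.96% with a median of 2.21%. The family means were 32.7% ± 1.29 and 2.15% ± 0.489 (SD, n = 7 each), 30.5 points apart. With 1 kb instead of 5 kb upstream the Zic1 difference was 9.33 points, since the longer region takes in part of a Zic4 intron. At Zic4 the MEF-1 lines ran from 54.4% to 57.4% (median 56.4%) and the MEF-2 lines from 23.9% to 26.5% (median 25.5%). These means were 56.1% ± 1.17 and 25.3% ± 0.973, a difference of 30.8 points. The groups did not overlap in either gene, and the parental lines lay within the range of their own clones, except MEF-2 at Zic4, which was just below it. The share of all genes without such overlap is not given here, so nothing is read from the separation. The parental levels were 33.1% and 2.13% at Zic1 and 55.2% and 23.8% at Zic4, for MEF-1 and MEF-2 in that order. The 145 CpGs of Zic4 outside the Zic1 region were at 77.9% ± 1.57 in MEF-1 and 46.9% ± 1.90 in MEF-2, so MEF-2 was methylated in parts of Zic4 but hardly at all in the Zic1 region.

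**Figure D1:**
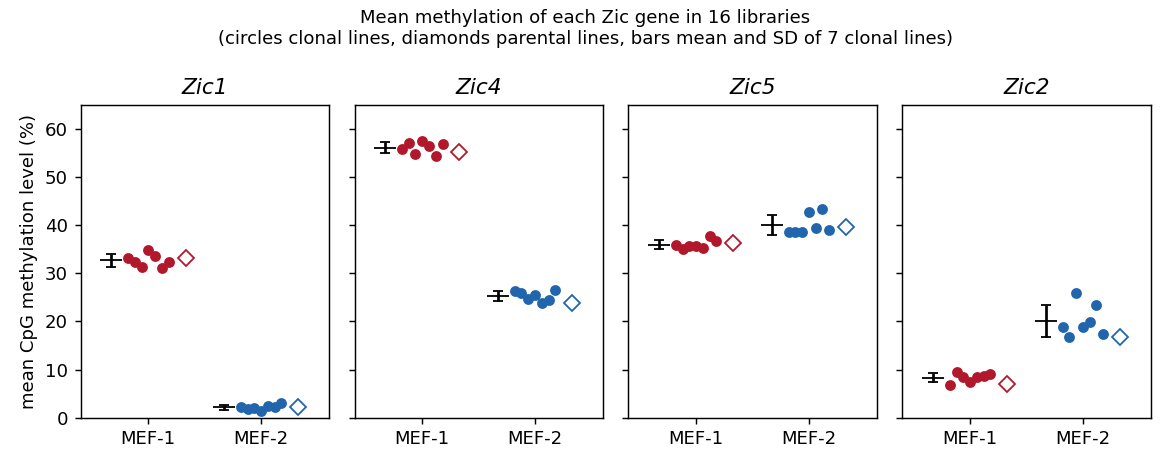
Mean methylation level in percent over the CpGs of each gene, with 7 clonal lines (circles) and 1 parental line (diamond) per family and the clonal mean with its SD at the left of each group. MEF-1 lines lie far above MEF-2 lines at Zic1 and Zic4, below them at Zic2, and within a few points of them at Zic5, where the means are 36.0% and 40.01%.

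The difference was not spread evenly over the genes. Of the 280 CpGs, 157 passed the call between families, 126 higher in MEF-1 and 31 higher in MEF-2, that is 45.0% and 11.1% beside the 11.6% and 8.53% of all CpGs. The genes were selected on this contrast, so nothing is read from that excess. Of the 135 CpGs in the Zic1 region 57 were called, 56 higher in MEF-1 and 1 higher in MEF-2, and of the 145 others of Zic4 100 were called, 70 and 30. At 82 of the 280 CpGs the family means were at least 80 points apart. No such share over all CpGs is given here, so nothing is read from this count either. In MEF-1 42.04% ± 1.89 of the CpGs were above 90% and 30.9% ± 0.679 below 10%. In MEF-2 21.1% ± 1.03 were above 90% and 70.6% ± 1.59 below 10%. The remaining CpGs of each family had levels in between. When CpGs at most 300 bp apart were joined into stretches of at least 3 CpGs, 279 of the 280 fell into 13 stretches. All MEF-1 clonal lines were above all MEF-2 lines in 7 stretches, all MEF-2 lines were above in 2, and the families overlapped in 4. Over all 100694 such stretches of the study, 14.8% had all MEF-1 lines above and 8.83% all MEF-2 lines above, and with genes chosen on this contrast nothing is read from the counts. In those last 4 stretches every line was below 10%.

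Of these low stretches 3 lay around the start of Zic1, and the other lay further into Zic4. The 55 CpGs at chr9:91364074-91364696, in a coding exon of Zic1, were at 1.28% ± 0.258 (MEF-1) and 1.06% ± 0.316 (MEF-2). The 16 CpGs at chr9:91362193-91362503, at the first annotated start of Zic4, were at 1.90% ± 0.587 and 1.23% ± 0.682. The 4 CpGs before the start of Zic1, at chr9:91365961-91366008, were at 1.21% ± 0.937 and 1.65% ± 1.79. Methylation at these starts was close to absent in all 16 libraries. The 208 bases before the Zic1 start are shown because they hold this shared unmethylated state. They are on the minus strand at chr9:91365811-91366018 (GRCm38), and capitals mark the CpGs with at least 30 reads summed over the clonal lines of each family.
Before Zic1: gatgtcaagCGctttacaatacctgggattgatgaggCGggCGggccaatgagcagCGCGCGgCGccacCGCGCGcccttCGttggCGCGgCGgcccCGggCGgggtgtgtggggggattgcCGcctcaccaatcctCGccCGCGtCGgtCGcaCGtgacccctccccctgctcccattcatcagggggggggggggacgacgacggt
Of the 26 CpGs in this sequence 23 had that depth, and their summed levels lay between 0% and 6.02% in MEF-1 and between 0% and 4.76% in MEF-2. The RefSeq promoter window of Zic1, chr9:91365719-91366018, gave 1.75% ± 0.664 in MEF-1 and 1.67% ± 0.858 in MEF-2 when all reads over its 33 CpGs were summed per library. The lines ran from 0.959% to 2.91% and from 0.460% to 3.06%, and the families overlapped.

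Upstream of Zic1, the level of MEF-1 rose within the 1084 bp that separate the last low CpG from the next one read in all libraries. The 10 CpGs before that gap averaged 1.06% ± 0.627 (MEF-1) and 1.49% ± 0.961 (MEF-2). The 10 CpGs after it averaged 68.6% ± 7.65 in MEF-1 and 0.871% ± 0.339 in MEF-2. This was the edge of a block (CpGs whose running median difference over 5 CpGs was at least 20 points) that ran over 3676 bp at chr9:91367092-91370767 and held 42 CpGs. The block averaged 81.8% ± 2.46 in MEF-1, from 78.1% to 85.4%, and 4.33% ± 1.53 in MEF-2, from 2.82% to 7.31%. Its parental levels were 82.4% and 4.87%. The first 29 CpGs lie in an intron of Zic4. The next stretch of the block, 12 CpGs at chr9:91370026-91370767, was at 70.8% ± 4.97 and 10.7% ± 3.63.

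The CpG with the largest difference of both genes lay in this block at chr9:91367581, in a Zic4 intron, 1771 bp before the start of Zic1 and 5168 bp after the first start of Zic4. All 118 reads of the MEF-1 clonal lines were methylated there, and every line was at 100%. The MEF-2 clonal lines had 0 methylated reads of 149, and such a count allows at most 2.01%. The parental lines were at 96.2% (95% Wilson interval 81.1% to 99.3%, 26 reads) and 0% (0% to 15.5%, 21 reads). The intervals cover counting error only. The sequence around this CpG is shown because it holds the CpG with the largest family difference of both genes. It is on the plus strand at chr9:91367441-91367721, and all 15 of its CpGs are capitals.
Zic4 intron: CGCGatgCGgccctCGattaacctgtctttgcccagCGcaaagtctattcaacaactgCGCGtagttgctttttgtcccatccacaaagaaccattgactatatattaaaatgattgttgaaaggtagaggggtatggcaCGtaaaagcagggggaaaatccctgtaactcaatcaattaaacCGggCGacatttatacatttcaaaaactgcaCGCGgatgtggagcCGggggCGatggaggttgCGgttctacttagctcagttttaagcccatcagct
The levels of these 15 CpGs summed over the clonal lines were 71.6% to 100% in MEF-1 and 0% to 5.90% in MEF-2. The lowest MEF-1 level belonged to the second CpG, 2 bp from the first, which itself was at 99.5%. At that second CpG the MEF-1 lines ran from 51.5% to 97.0% around a median of 65.8%. Adjacent CpGs of this block therefore had different levels within a line.

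The block also covers starts of Zic4. GENCODE lists 12 transcripts of Zic4, and 5 of them start inside the block, between 91368367 and 91369498. The CpG at 91368644, in a Zic4 exon, was alone there in the shared set, at 91.4% ± 10.4 in the MEF-1 lines (69.2% to 100%) and at 0% in every MEF-2 line. All reads over the RefSeq promoter window of Zic4, chr9:91368722-91369021, numbered only 12 to 82 per library. On those reads the MEF-1 lines ran from 0% to 94.1% with a median of 76.0%, and the MEF-2 lines from 0% to 30.8% with a median of 0%. The MEF-1 line at 0%, clonal line 4, had 12 reads, and its upper Wilson limit was 24.2%. The MEF-2 line at 30.8% had 13 reads. MEF-1 clonal line 3 also had 12 reads but was at 91.7%, and MEF-1 clonal line 6 was at 40.9% with 22 reads. The groups overlapped, and the part of depth in this overlap was not tested. The promoter of these Zic4 transcripts was measured with little precision.

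At the far end of the block neighbouring CpGs alternated in MEF-1. The CpG at 91370531 was at 9.72% (5.41% to 11.1%), the next at 91370595 was at 96.8% (92.1% to 100%), the next at 91370691 was at 3.01% (0% to 5.36%) and the last at 91370767 was at 98.9% (95.6% to 100%). The 4 ranges over 7 lines did not overlap between high and low CpGs, and the parental line showed the same order at 24.3%, 94.4%, 7.58% and 100%. In MEF-2 the same CpGs were at 44.6%, 10.7%, 0.921% and 45.7%. These CpGs were picked out after their values had been seen.

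Further into Zic4 a second block held 59 CpGs at chr9:91377392-91379390, 41 of them in a coding exon. MEF-1 lines ran from 90.4% to 94.1% (mean 92.4% ± 1.16) and MEF-2 lines from 2.01% to 5.19% (mean 3.49% ± 1.26). This was the widest family contrast of any block at the 2 loci, 88.9 points, and 2 more Zic4 transcripts start in it. The first 6 CpGs stood apart, since MEF-2 was at 17.2% ± 8.29 there with lines from 4.89% to 25.2%. The other 53 were at 1.94% ± 0.735 in MEF-2. The last 10 CpGs of the block were at 97.9% ± 1.54 in MEF-1, and the 9 CpGs at chr9:91381237-91381414, which begin 1847 bp later, were at 1.498% ± 0.535 (MEF-1) and 1.30% ± 0.687 (MEF-2). The methylated state of MEF-1 was thus interrupted inside the gene by a short stretch that was low in every library.

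MEF-1 was high again at chr9:91383407-91383635, in a later Zic4 intron, where MEF-2 had a graded level. The 11 CpGs averaged 96.4% ± 2.37 in MEF-1, from 91.9% to 99.1%, and 25.1% ± 8.17 in MEF-2, from 15.8% to 35.5%. The sequence, on the plus strand at chr9:91383397-91383655, is shown because the level of MEF-2 changed along it while that of MEF-1 stayed high.
Zic4 later intron: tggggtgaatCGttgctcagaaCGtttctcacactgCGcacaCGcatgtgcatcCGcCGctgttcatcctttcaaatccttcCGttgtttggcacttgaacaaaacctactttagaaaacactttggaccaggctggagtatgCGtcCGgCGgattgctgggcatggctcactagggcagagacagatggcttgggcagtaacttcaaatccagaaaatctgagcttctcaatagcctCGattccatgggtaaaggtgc
From the first to the tenth of these CpGs, a distance of 140 bp, the summed level of MEF-2 went from 4.65% (172 reads) to 52.8% (375 reads). At the eleventh, 228 bp from the first, it was 14.96% (274 reads). MEF-1 was at 74.7% at the first CpG and between 96.8% and 99.4% at the others. Beyond the gap of 311 bp that followed, the 36 CpGs at chr9:91383946-91384375 were high in both families, 84.7% ± 3.25 in MEF-1 and 96.3% ± 1.22 in MEF-2, with all MEF-2 lines above all MEF-1 lines. MEF-2 thus went from low to nearly full methylation across these neighbouring stretches, and the direction of the family difference turned there.

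At the end of Zic4 the MEF-2 lines were the higher ones. The 30 CpGs at chr9:91386798-91387313, in the annotated UTR, ran from 51.9% to 62.0% in the MEF-1 lines (mean 57.2% ± 3.57) and from 86.9% to 98.1% in the MEF-2 lines (mean 94.4% ± 4.00). The parental levels were 54.1% and 90.8%. After a gap of 18519 bp without a shared CpG, the 19 CpGs at chr9:91405832-91406198, in an intron of the noncoding gene Gm29478, were at 12.6% ± 3.86 (MEF-1) and 70.7% ± 6.73 (MEF-2). The reversed direction was therefore also found outside Zic4 on that side.

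**Figure D2:**
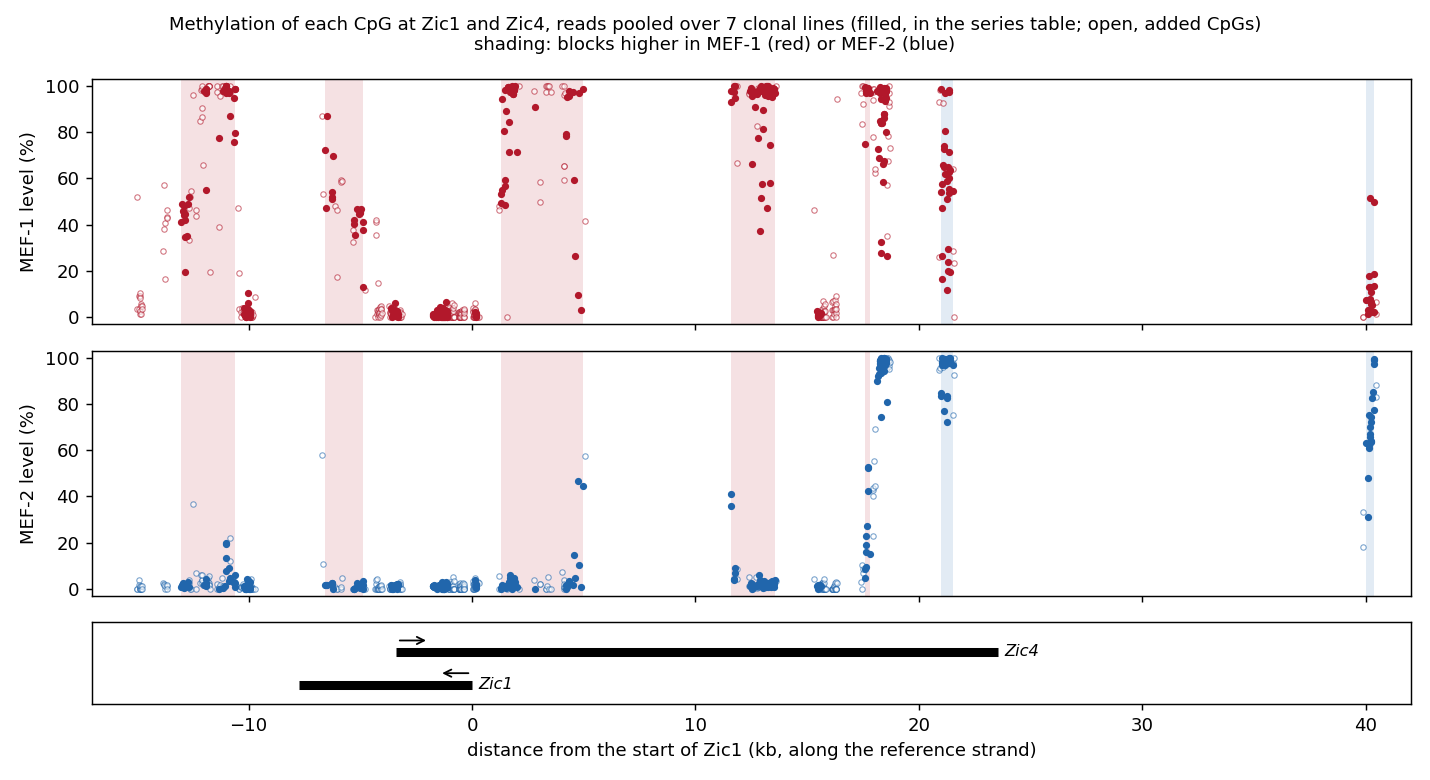
Methylation level in percent of each CpG at Zic1 and Zic4 against its distance in kb from the start of Zic1, with reads pooled over the 7 clonal lines of MEF-1 (upper panel) and MEF-2 (middle panel). Filled points are CpGs read 10 times in every library, open points others with at least 30 reads per family, shaded areas the 7 blocks, and bars in the lowest panel the genes. MEF-1 is high on both sides of the low starts, and most MEF-2 points are low before the later part of Zic4, with single CpGs at intermediate level such as 91370531.

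On the other side, the end of Zic1 and the sequence behind it also differed. Within Zic1, 17 CpGs of the UTR at chr9:91359248-91360913 were at 49.0% ± 4.41 in MEF-1, from 41.5% to 54.0%, and at 1.42% ± 0.907 in MEF-2, from 0.318% to 3.23%. The next shared CpG after this block, at 91360928, was still at 37.8% ± 11.6 in MEF-1 and at 0% in MEF-2. The one after it, at 91362193 in an intron of Zic1, was at 3.84% ± 6.16 and 2.29%. The change in MEF-1 thus lay in a gap without shared CpGs. Among other CpGs there with at least 30 summed reads per family, MEF-1 was at 35.4% at 91361518 and 1.20% at 91361548. It was not even before them, with 0% at 91361481 (43 reads). Behind Zic1, outside the region counted for it, 34 CpGs at chr9:91352806-91355195 were at 72.9% ± 5.33 in MEF-1 and 4.08% ± 1.97 in MEF-2. Between these blocks the 21 CpGs at chr9:91355609-91355864 were low in both families, at 2.40% ± 0.662 and 1.24% ± 0.675.

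The edge between the last block and this low stretch is shown because the added CpGs with fewer reads place it within a short sequence. It is on the plus strand at chr9:91355145-91355415, and all 8 of its CpGs are capitals, 5 of them in the shared set.
Behind Zic1: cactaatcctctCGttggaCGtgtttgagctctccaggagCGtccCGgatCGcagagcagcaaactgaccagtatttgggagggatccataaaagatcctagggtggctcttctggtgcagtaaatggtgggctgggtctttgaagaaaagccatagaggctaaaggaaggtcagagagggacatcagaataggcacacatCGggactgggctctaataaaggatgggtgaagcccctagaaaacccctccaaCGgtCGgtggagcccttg
Summed over the clonal lines, MEF-1 was at 98.5% at the fifth CpG (132 reads), 47.1% at the sixth (70 reads), 19.05% at the seventh (84 reads) and 3.53% at the eighth (85 reads). The fifth and the eighth are 38 and 245 bp from the first. MEF-2 was at or below 6.08% at all 8. The change in MEF-1 therefore ran over less than 300 bp here. The next shared CpGs on the outer side of the block were 61196 bp away. The 5 CpGs there were at 65.2% ± 4.92 in MEF-1 and 93.4% ± 5.25 in MEF-2, which is the opposite order. Nearer the block, added CpGs with at least 30 summed reads per family were low in both families. MEF-1 was at 3.45% at 91351035 and 28.6% at 91351970, and MEF-2 at 0% and 2.78%. Further out MEF-1 was uneven, with 3.70% at 91350832 and 52.2% at 91350816.

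Counting all CpGs with at least 30 pooled reads in both families added 322 CpGs to the 354 of the shared set in this window, a choice made after seeing the data. The blocks higher in MEF-1 then ran over chr9:91351970-91355346, chr9:91366997-91370595, chr9:91377392-91381121 and chr9:91382160-91383789, besides the end of Zic1. The gap between the last 2 of these was shorter than in the shared set, where the methylated parts ended at 91379390 and began at 91383407. The low stretch between them remained outside both.

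**Figure D3:**
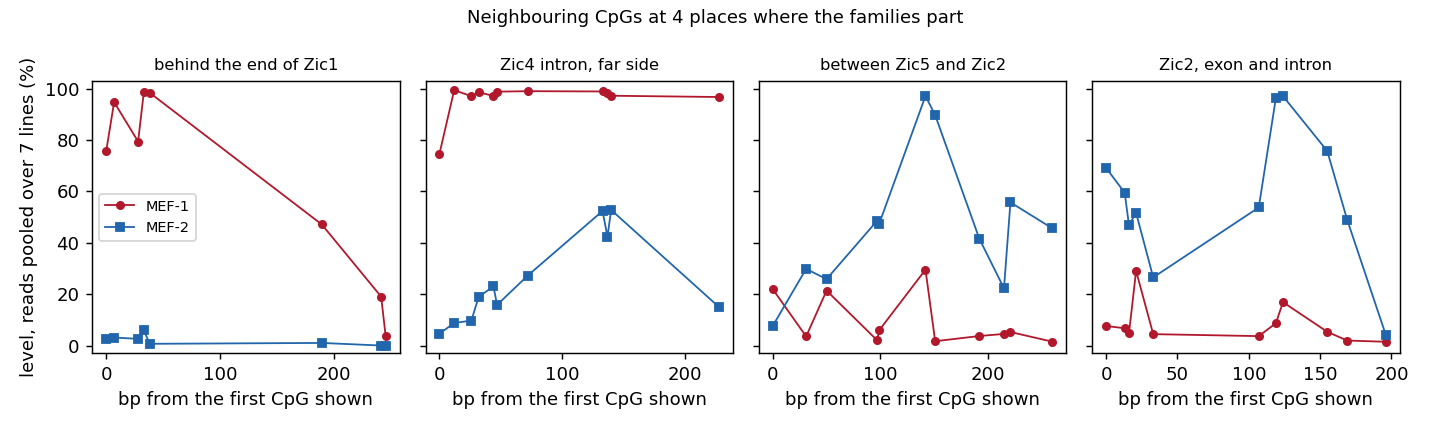
Methylation level in percent of single CpGs against their distance in bp from the first CpG of each of 4 shown sequences, with reads pooled over the 7 clonal lines of MEF-1 and of MEF-2. MEF-1 falls from 98.5% to 3.53% behind Zic1, MEF-2 rises from 4.65% to 52.8% in the later Zic4 intron, and MEF-2 lies above MEF-1 at most CpGs of the sequences from Zic5 and Zic2.

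Zic5 (ENSMUSG00000041703.7, chr14:122456795-122465677, minus strand) and Zic2 (ENSMUSG00000061524.8, chr14:122475435-122479852, plus strand) do not overlap, and their starts are 9758 bp apart. Zic5 had 135 shared CpGs, 34.6% of those in the reference, and Zic2 had 68, which is 14.8%. A CpG was read 31 times at Zic5 and 26 times at Zic2 in the median library. No CpG was counted for both genes.

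At Zic5 the MEF-1 clonal lines ran from 34.96% to 37.8% (median 35.7%) and the MEF-2 lines from 38.5% to 43.4% (median 39.0%). The means were 36.0% ± 0.976 and 40.01% ± 2.09, with MEF-1 lower by 4.05 points (a difference of -4.05), and the parental lines were at 36.2% and 39.7%. At Zic2 the MEF-1 lines ran from 6.70% to 9.51% (median 8.53%) and the MEF-2 lines from 16.7% to 25.9% (median 18.8%). The means were 8.33% ± 0.9504 and 20.1% ± 3.33, a difference of -11.8 points, and the parental lines were at 7.05% and 16.7%. The groups did not overlap at either gene, from which again nothing is read, and the direction was the opposite of that at Zic1 and Zic4. At Zic5 this direction did not hold under other choices, with differences of 1.03 points for CpGs with at least 20 reads and 0.0244 points with 1 kb upstream. At Zic2 the same choices gave -24.9 and -18.4 points. The spread of the MEF-2 lines at Zic2 was also wider than that of the MEF-1 lines.

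At this pair 51 of 203 CpGs were called, 17 higher in MEF-1 and 34 higher in MEF-2, which is 8.37% and 16.7% beside 11.6% and 8.53% of all CpGs. Of the calls, 32 lay in Zic5 (13 higher in MEF-1 and 19 in MEF-2) and 19 in Zic2 (4 and 15). The means were at least 80 points apart at 3 CpGs, again without a share over all CpGs beside it. Of the 10 stretches that held 201 of the CpGs, 7 overlapped between the families, 2 had all MEF-2 lines above and 1 had all MEF-1 lines above, beside the 8.83% and 14.8% of all stretches.

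The stretches that overlapped covered the coding parts near the starts. The 30 CpGs of a Zic5 coding exon at chr14:122463925-122464227 were at 6.38% ± 2.32 (MEF-1) and 9.28% ± 4.56 (MEF-2). The 30 CpGs at the start of Zic5, chr14:122465131-122465632, were at 6.39% ± 3.37 and 5.85% ± 1.93. The 8 CpGs just after the start of Zic2, chr14:122475816-122475932, were at 4.01% ± 4.32 and 6.03% ± 4.39. All of these means were below 10%. By contrast the 11 CpGs at chr14:122466029-122466427, before the start of Zic5, were at 77.8% ± 4.92 and 78.0% ± 5.17, with no difference beyond the spread, while the stretch at chr14:122462772-122463304, in a Zic5 intron, was the one in which all MEF-1 lines were above, at 88.7% ± 1.40 and 83.7% ± 2.30.

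Between the genes, 21 CpGs at chr14:122468538-122469311 formed the block higher in MEF-2 that was counted for Zic5. Its extent depended on the choices made, since no block was found here with CpGs of at least 20 reads in every library, and 6 CpGs over 119 bp were left at a difference of 40 points. MEF-1 lines ran from 9.89% to 18.96% (mean 13.9% ± 3.23) and MEF-2 lines from 38.0% to 57.8% (mean 49.2% ± 6.79). The parental levels were 16.9% and 50.8%. Around its first edge the MEF-1 mean was 57.8% ± 3.72 over the 10 CpGs before and 7.80% ± 2.04 over the 10 after. The MEF-2 means of the same CpGs were 38.8% ± 4.77 and 50.0% ± 10.96. The 10 CpGs before the edge were uneven in MEF-1, with 99.5% at 122468046 and 10.4% at 122468155. The 2 CpGs next to the edge are 31 bp apart. Summed reads there gave 21.9% and 3.54% in MEF-1, and 7.69% and 29.8% in MEF-2. The sequence at this edge is shown on the plus strand at chr14:122468478-122468768 because it also holds the CpG of Zic5 with the largest difference. All 11 of its CpGs are capitals.
Between Zic5 and Zic2: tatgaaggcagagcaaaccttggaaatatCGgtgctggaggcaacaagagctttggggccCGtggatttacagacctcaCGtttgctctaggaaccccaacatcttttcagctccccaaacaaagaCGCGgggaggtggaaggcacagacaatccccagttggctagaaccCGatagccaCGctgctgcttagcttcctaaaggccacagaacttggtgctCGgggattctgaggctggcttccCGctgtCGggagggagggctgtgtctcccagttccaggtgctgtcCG
The largest difference was at the seventh CpG, 122468658, which lies 2981 bp before the start of Zic5. MEF-1 lines were between 0% and 7.69% (mean 1.75% ± 3.12, 3 of 179 reads methylated) and MEF-2 lines between 75.0% and 100% (mean 89.8% ± 7.86, 166 of 185 reads). The parental lines were at 3.70% and 93.5%. The CpG 9 bp before it was at 97.2% in MEF-2 and 29.5% in MEF-1 when reads were summed. The other MEF-2 levels in this sequence lay between 7.69% and 55.8%, so in MEF-2 these 2 CpGs stood above the rest of the sequence.

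In Zic2 the difference lay towards the end of the gene. The 21 CpGs at chr14:122478565-122478951, of which 12 are in coding exons and 9 in the intron between them, were at 5.70% ± 1.24 in MEF-1, from 3.43% to 7.33%, and at 42.1% ± 7.15 in MEF-2, from 33.1% to 51.1%. The first 10 of them formed a block at 8.83% ± 2.57 against 62.7% ± 8.60. Before it, 18 CpGs of Zic2 at chr14:122476355-122476659 were at 2.69% ± 0.981 and 7.97% ± 2.86. The sequence of the block and the CpG after it is shown on the plus strand at chr14:122478555-122478764, because it crosses from the coding exon into the intron and contains the largest difference of Zic2. All 11 of its CpGs are capitals.
Zic2 exon and intron: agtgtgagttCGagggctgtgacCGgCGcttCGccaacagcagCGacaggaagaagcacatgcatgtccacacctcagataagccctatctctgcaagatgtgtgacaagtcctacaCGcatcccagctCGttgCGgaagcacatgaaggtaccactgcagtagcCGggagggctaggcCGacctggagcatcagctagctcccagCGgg
At the seventh CpG, 122478684, in the coding exon, MEF-1 lines ran from 0% to 32.6% with a median of 5.33% (mean 9.67% ± 11.8), and MEF-2 lines from 92.5% to 100% with a median of 96.5% (mean 96.7% ± 2.93). Counted over reads, 33 of 380 were methylated in MEF-1 and 345 of 358 in MEF-2. Its neighbour 5 bp on was at 18.3% ± 15.3 and 97.3% ± 2.55. At the other CpGs MEF-2 was intermediate, and lines differed widely. At 122478565 the MEF-2 lines spanned 17.2% to 95.1%, and at 122478734 they spanned 2.70% to 64.6%. The last CpG of the sequence, 27 bp after the block, was at 1.52% ± 3.06 and 4.08% ± 4.72. The edge in MEF-2 was therefore sharp, but methylation returned further on, with 45.8% ± 12.3 at 122478810 in MEF-2 against 1.11% ± 1.90 in MEF-1.

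**Figure D4:**
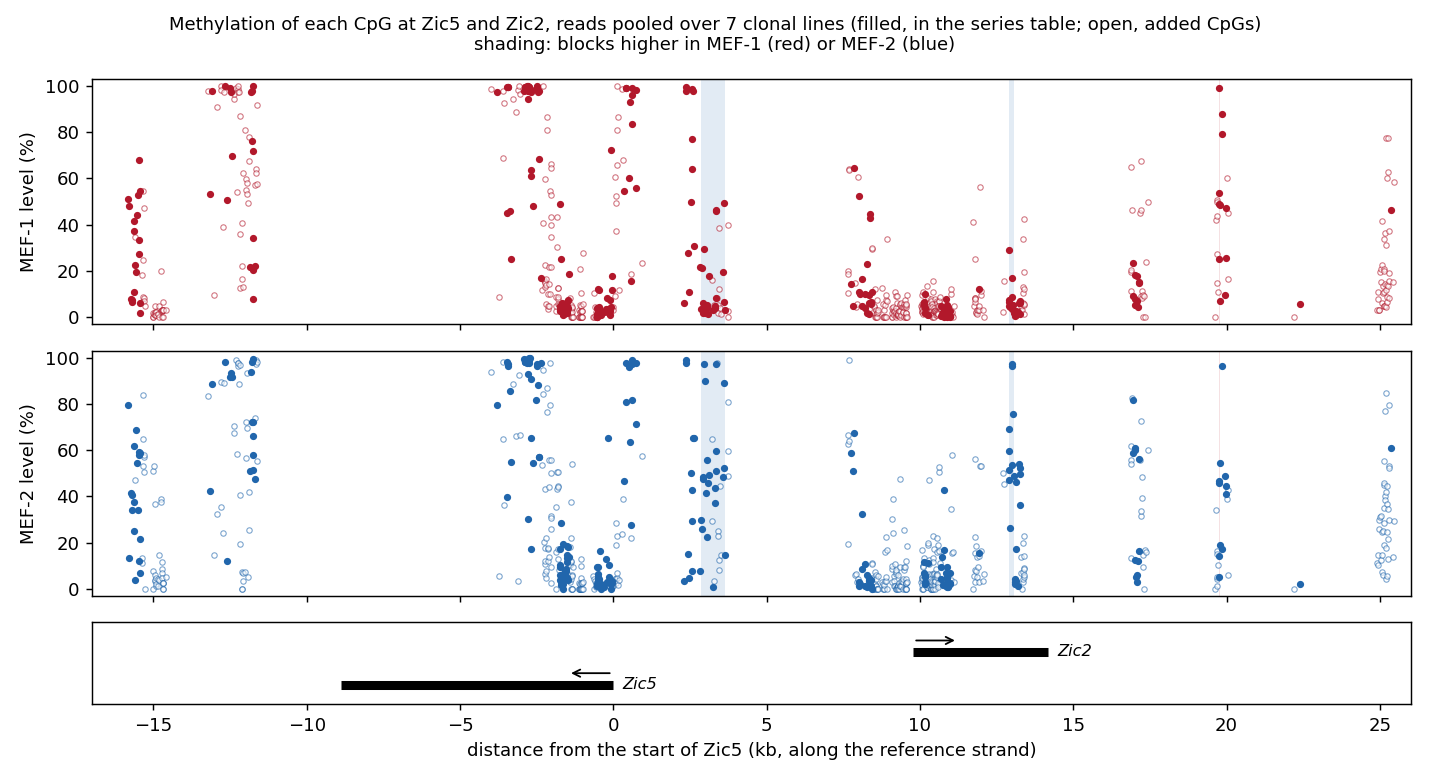
Methylation level in percent of each CpG at Zic5 and Zic2 against its distance in kb from the start of Zic5, with reads pooled over the 7 clonal lines of MEF-1 (upper panel) and MEF-2 (middle panel). Filled points are CpGs read 10 times in every library, open points others with at least 30 reads per family, and shaded areas the blocks. The families share most of the profile, and MEF-2 is higher between the genes and late in Zic2.

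Only 3 CpGs of the shared set lay in the RefSeq promoter window of Zic5, where the family order differed from that of the Zic5 mean. In this window, chr14:122465609-122465908, with 16 CpGs and 120 to 361 reads per library, the MEF-1 lines ran from 28.8% to 57.1% with a median of 39.2%, and the MEF-2 lines from 2.72% to 11.6% with a median of 5.34%. The means were 39.8% ± 9.03 and 6.29% ± 3.08, and the parental lines were at 32.8% (27.8% to 38.2%) and 4.83% (3.04% to 7.60%). The groups did not overlap, but the share of all promoter windows without overlap is not given here, so nothing is read from the separation. With CpGs of at least 30 pooled reads a block of 9 CpGs higher in MEF-1 appeared at chr14:122465751-122465972, just before the start of Zic5. The GENCODE start is at 122465677. The window at the start of Zic5 was thus higher in MEF-1, whereas the mean over all 135 shared CpGs of the gene was higher in MEF-2. No RefSeq window was matched for Zic2.

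Single CpGs that departed from their surroundings were also found at the start of Zic5. These were defined, after values had been seen, as CpGs at least 50 points from the median of their 4 nearest neighbours. At 122465508 the MEF-2 lines ran from 35.5% to 93.6% (mean 61.1% ± 20.8), where the neighbours had a median of 6.17% and MEF-1 was at 2.71%. At 122465614 the MEF-1 lines ran from 16% to 100% (mean 72.4% ± 26.8), the neighbours were at 7.53% and MEF-2 was at 0%. Such CpGs numbered 10 in MEF-1 and 7 in MEF-2 of 174 at Zic5 and Zic2, and 6 and 1 of 231 at Zic1 and Zic4. In Zic4 the isolated CpGs of MEF-1 were mostly lower than those around them. In the coding exon of the second block, 91378718 was at 42.02% ± 27.3 with lines from 16.7% to 91.7%, among neighbours with a median of 98.4%. In the same exon 91379002 was at 46.4% ± 22.8 (19.05% to 80.65%), among neighbours at 99.8%. The CpGs 2 bp apart in another coding exon, 91384130 and 91384132, were at 29.95% ± 21.4 and 25.2% ± 24.6 in MEF-1 and at 100% and 76.7% in MEF-2. These 4 CpGs were therefore of intermediate level in MEF-1 and uneven between its clones. In an intron of Zic5 the CpG at 122463070 was at 47.4% ± 6.72 in MEF-1 (36% to 55.6%) and 54.2% in MEF-2, among MEF-1 neighbours at 98.4%. The CpG at 122468046 was high in both families, 99.5% ± 1.35 and 97.8% ± 2.21, among neighbours with medians of 18.3% and 10.3%. It was not alone, since the highest of these neighbours was at 98.0% in MEF-1 and 98.9% in MEF-2.

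**Figure D5:**
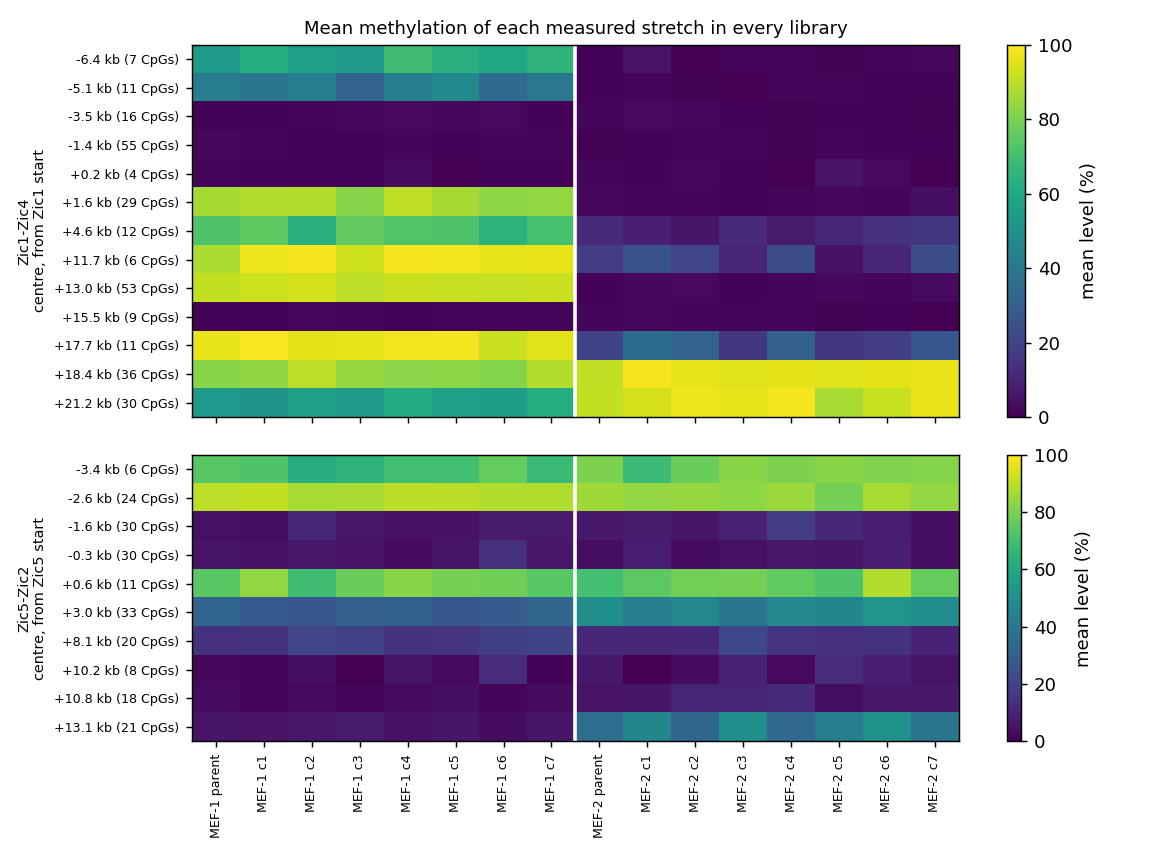
Mean methylation level in percent (colour scale) of the 23 stretches of shared CpGs in the Zic genes (13 at Zic1 and Zic4, 10 at Zic5 and Zic2), each placed by its distance from the start of Zic1 or Zic5, in the 16 libraries. The 7 clonal lines of a family and their parental line have like colours in each stretch, and the families contrast in most stretches at Zic1 and Zic4 but in few at Zic5 and Zic2.

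The parental lines carried the levels of their clones in most stretches. At Zic1 and Zic4 the parental level lay within the range of the 7 clonal lines in 10 of 13 stretches for MEF-1 and in 11 for MEF-2, and at Zic5 and Zic2 in 9 of 10 for both. Comparison of each clonal line with its parental line by Fisher's exact test, with adjusted p below 0.05, called 115 of 3381 pairs of CpG and line in MEF-1 (3.40%) and 153 in MEF-2 (4.53%), beside 3.46% and 6.57% over all CpGs. These calls depended on depth, with 60 and 94 pairs called when only CpGs with 20 reads in every library were kept, and 0 and 0 when all libraries were thinned to 10 reads. The shares were 2.65% and 1.94% at Zic1 and Zic4, and 4.43% and 8.09% at Zic5 and Zic2. The pairs at Zic5 and Zic2 were higher in the clone in 83 cases and lower in 32 in MEF-2, and in 44 and 19 in MEF-1. At Zic1 and Zic4 these counts were 35 and 3 in MEF-2, and 34 and 18 in MEF-1. All lines of a family were compared with the same parental library, and no such split over all CpGs is given here. Within Zic1 alone 6 of 945 pairs were called in MEF-2. The family difference was thus already present between the parental cultures. Without thinning, the share of calls over all 4 genes against the parental line was near that of all CpGs in MEF-1 and below it in MEF-2.

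The spread between lines of a family was set beside the spread that counting of reads alone would give, with reads taken as independent. The mean SD between lines was 9.63 points in MEF-1 and 6.47 in MEF-2 at Zic1 and Zic4, where read sampling alone would give 5.20 and 3.23. At Zic5 and Zic2 it was 10.7 and 14.0, beside 5.05 and 6.04. A range of at least 50 points between lines was seen at 27 CpGs (MEF-1) and 12 CpGs (MEF-2) of Zic1 and Zic4, and at 27 and 47 of Zic5 and Zic2. Fidelity, the share of clonal lines at a level near 0%, 50% or 100%, averaged 0.931 for Zic1, 0.890 for Zic4, 0.858 for Zic5 and 0.849 for Zic2, and 0.833 for all CpGs. CpGs with every clonal line near those levels were 57.0% at Zic1 and 45.7% at Zic4, beside 37.0% of all CpGs. At Zic5 and Zic2 they were 31.9% and 22.1%, below that share, so the 2 measures ranked these genes differently against all CpGs. By family, the share of CpGs per line near 0%, 50% or 100% was 83.9% ± 2.43 (MEF-1) and 93.5% ± 1.07 (MEF-2) at Zic1 and Zic4. At Zic5 and Zic2 it was 85.4% ± 2.87 and 84.2% ± 6.05. By SD and range, MEF-2 at Zic5 and Zic2 was the family and locus with the most spread between clones. The share near those levels was highest in MEF-2 at Zic1 and Zic4, and the other values differed by less than their SDs. No SD or range count over all CpGs is given beside these.

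The starts were compared with the rest of each pair within the lines, as a description, since the genes were chosen on levels of the same CpGs and lines. CpGs within 1 kb of an annotated gene start averaged 1.76% ± 0.541 in the MEF-1 lines at Zic1 and Zic4, and the other CpGs 60.3% ± 1.26, a difference of -58.5 ± 1.45 points. In the MEF-2 lines these were 1.32% ± 0.662 and 27.1% ± 1.05, a difference of -25.8 ± 1.31. At Zic5 and Zic2 the MEF-1 lines had 20.6% ± 2.45 near the starts and 28.9% ± 0.714 elsewhere (-8.31 ± 2.71), and the MEF-2 lines 21.002% ± 1.79 and 37.7% ± 2.11 (-16.7 ± 1.35). CpGs near the starts were lower in 7 of 7 lines in each of these 4 comparisons. The starts used were the annotated gene starts, which for Zic4 is the first of its 12 transcript starts. Of the others, 5 lie in the block before Zic1 and 2 in the second block of Zic4, where MEF-1 was at 81.8% and 92.4%, and CpGs there counted as the rest. The 2 means come from CpGs that differ in density, with 15.3 and 10.95 other CpGs within 100 bp at Zic1 and Zic4 and 12.6 and 9.63 at Zic5 and Zic2. The part of density in this difference was not tested. The size depended on the choices made. With windows of 2 kb the differences at Zic5 and Zic2 were -29.0 (MEF-1) and -43.3 points (MEF-2), and that at Zic1 and Zic4 in MEF-2 was -40.7 points. When only CpGs with 20 reads in every library were kept, the differences at Zic5 and Zic2 were 5.69 points in MEF-1, in the opposite direction, and -4.80 points in MEF-2. With levels of pooled reads the MEF-1 difference there was -2.82 points.

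Read coverage was compared because a change in copy number would also change it. Relative to the other CpGs of the same chromosome, coverage of the Zic1 and Zic4 CpGs was 0.912 ± 0.0286 in the MEF-1 lines (0.869 to 0.946) and 0.962 ± 0.0422 in the MEF-2 lines (0.896 to 1.01), a ratio of 0.948. The parental libraries were further apart, at 0.824 and 1.004, with MEF-1 below the range of its clones and MEF-2 within that of its own. The exact two-sided permutation test gave p = 0.0268, and 0.0536 when adjusted over the 2 loci. The ratio at Zic5 and Zic2 was 0.988 (exact permutation p = 0.531). The part of coverage in the level differences was not tested.

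The gene means were set against those of all 14333 protein-coding genes with at least 10 shared CpGs. By size of the family difference Zic4 ranked 35, Zic1 37, Zic2 887 and Zic5 4520. A gene was called in limma at an adjusted p below 0.05 with a difference of at least 10 points, which 6.7% of genes met as higher in MEF-1 and 1.95% as higher in MEF-2. Zic1 and Zic4 met it in the first direction and Zic2 in the second, while Zic5 did not reach 10 points. Since the genes were chosen on this contrast their calls are not evidence.

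Lists of related genes were set beside the 4 genes. Of the Gli and Glis genes, the closest relatives of the Zic family, 5 of 6 were tested, none was called higher in MEF-1 and 1 higher in MEF-2, and their median difference was 0.360 points beside 0.753 over all genes. The called gene was Gli3, a transcription factor of the Hedgehog pathway, with lines from 28.1% to 32.5% in MEF-1 (mean 30.6% ± 1.80) and from 38.7% to 44.9% in MEF-2 (mean 41.3% ± 2.42). Its difference was -10.7 points over 22 CpGs (limma, adjusted p = 1.13e-06), and with a minimum of 30 CpGs per gene Gli3 was not tested. A separate list of Hedgehog ligands, receptors and regulators, which leaves out the Gli genes, had 10 of 11 genes tested. None of these 10 was called, and their median difference was -0.957 points.

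Of 12 genes of the neural plate border and neural crest, where Zic genes act, 11 were tested, with 1 called in each direction and a median difference of -2.01 points. Msx1, a homeobox gene, was at 30.8% ± 1.92 in MEF-1 (28.1% to 33.4%) and 20.4% ± 1.78 in MEF-2 (17.3% to 22.2%), 10.4 points apart (limma, adjusted p = 3.98e-07). Gbx2, a homeobox gene of the midbrain-hindbrain boundary, was at 23.3% ± 1.498 (21.5% to 25.9%) and 38.7% ± 1.76 (37.1% to 42.3%), a difference of -15.4 points (limma, adjusted p = 3.23e-09). The lines did not overlap at Gli3, Msx1 or Gbx2, which were named because they were called. Without a minimum difference limma called 8723 of all 14333 genes. The shares called in each direction, 0 and 1 of 5, 0 and 0 of 10, and 1 and 1 of 11, are to be read beside the 6.7% and 1.95% of all genes.

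Of the nearest protein-coding genes on either side of the loci, 3 could be tested and none was called, since none reached 10 points. Their adjusted p in limma was below 0.05, from 8.51e-05 (Tbc1d2b) to 0.00186 (Gm5089). Tbc1d2b, 1087254 bp before Zic1, differed by -2.64 points, and Plscr5, 803588 bp after Zic4, by -9.99 points over 14 CpGs. Gm5089, 5680 bp from Zic5, was at 47.1% ± 4.33 in MEF-1 and 55.2% ± 3.11 in MEF-2, a difference of -8.03 points. Gm10837, 10734 bp after Zic2, had no shared CpG. The 3 tested genes were lower in MEF-1.

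Over the 16 libraries the genes whose mean level was most like that of the Zic1 and Zic4 locus were Wnt6, a secreted Wnt ligand, Pax8, a paired-box transcription factor, and Lmx1a, a LIM-homeobox transcription factor. The root mean square differences were 1.98, 2.16 and 2.58 points. Wnt6 was at 54.9% ± 0.895 in MEF-1 and 23.5% ± 1.53 in MEF-2, Pax8 at 55.7% ± 2.88 and 25.5% ± 1.75, and Lmx1a at 59.0% ± 1.72 and 25.6% ± 1.59. For the Zic5 and Zic2 locus they included Metap1d (1.63 points) and Meaf6 (1.70 points). Metap1d was at 27.8% ± 0.549 in MEF-1 and 33.2% ± 0.762 in MEF-2, and Meaf6 at 27.6% ± 1.80 and 32.8% ± 0.478. The likeness is to the mean of a locus over libraries that share 2 cultures, and is a description.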

How the data were processed

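Genomic DNA of 16 libraries (2 parental lines and 14 clonal lines) was captured, bisulfite converted and sequenced. Per the submitters' processing notes the authors used Trim Galore 0.6.0, Bismark and R 3.6.1 with the mm10 build. Reads of low mapping quality and biased read ends were dropped and both strands of a CpG combined; duplicate removal is not given in the sources used here. The authors deposited counts of methylated and unmethylated reads per CpG and library, and a series table holding the CpGs read 10 times or more in every library, without aneuploid and sex chromosomes. Capture probes set which CpGs were read. Reads are not independent molecules, so intervals and limits cover counting error only.

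From these counts the level of a CpG was methylated reads over all reads, and that of a gene the mean over its CpGs. The members and gene lists were chosen with earlier results of these data known. Families were compared over all CpGs with a quasi-binomial F-test and over genes with limma 3.58.1 (R 4.3.3), each clone with its parental line by Fisher's exact test, all with Benjamini-Hochberg adjustment. Exact permutation tests of coverage used scipy 1.17.1. P-values of the comparisons between families measure only the spread between lines of 1 culture. Those of Fisher's exact test rest on read counts taken as independent, and hold no spread between lines. Named items were the 4 genes, in each the CpG with the largest family difference, CpGs at block edges, the 3 genes most like each locus (1 of them is not reported here), listed genes that were called, and the nearest protein-coding genes. Alternating and isolated CpGs were chosen after their values were seen. Blocks needed at least 5 CpGs with gaps of at most 2000 bp, within 100 kb of each locus, and block edges were read from 10 CpGs on either side. Promoter windows and gene sequences came from RefSeq and the GRCm38 reference, which had a CG at every member CpG. RefSeq windows were matched for 3 of the 4 genes. The tests were checked on simulated data.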

Additional observations from a re-analysis of the deposited data

Results flagged for a closer look

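In each family of 7 clonal lines the highest and lowest line were compared with the others for 88 groups of values, and 11 groups held a line far from the rest by Dixon's criterion. Chance flags about 1 in 20 groups. For CpGs near the starts minus the rest of Zic5 and Zic2, MEF-1 clonal line 6 was at -2.84 points, the highest of its family, and MEF-2 clonal line 4 at -19.4 points, the lowest. MEF-1 clonal line 6 also had the highest level, 13.51%, in the stretch at the start of Zic5 (chr14:122465131-122465632). In the block behind Zic4 (chr9:91405832-91406198) MEF-2 clonal line 7 was at 85.3%.

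At Zic1 and Zic4, MEF-2 clonal line 1 was the highest of its family at chr9:91359248-91359609 with 5.16%, MEF-1 clonal line 4 at chr9:91365961-91366008 with 3.13%, and MEF-2 clonal line 7 at chr9:91367092-91367804 with 3.95%. MEF-1 clonal line 3 was the lowest of its family at chr9:91377392-91377582 with 92.5%. At Zic5 and Zic2, MEF-2 clonal line 1 was the lowest at chr14:122462216-122462343 with 68.7%, MEF-2 clonal line 6 the highest at chr14:122466029-122466427 with 88.5%, and MEF-2 clonal line 3, which had low coverage of chromosome 14, the highest at chr14:122473422-122474100 with 21.7%. All are values of 1 line, and their causes were not tested.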

How the results depend on the processing

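Of 76 alternative values 48 counted as unchanged, 21 moved, 4 reversed and 3 no longer had an unadjusted p below 0.05. Unchanged values kept their direction and side of the threshold, or stayed within the spread. Counts and block lengths were unchanged when they stayed within a fixed factor of the main value. The cause was not tested where a value changed, unless the alternative itself left fewer CpGs. Keeping CpGs with at least 20 reads left 183 CpGs, of which 91 were called between families (71 of 101 at Zic1 and Zic4, 20 of 82 at Zic5 and Zic2), 60 and 94 pairs of CpG and clone called against the parental line in MEF-1 and MEF-2, and no CpG near the starts of Zic1 and Zic4 for the comparison with the rest. It gave family differences of 42.05 points at Zic1, 37.3 at Zic4, 1.03 at Zic5 (reversed) and -24.9 at Zic2, block lengths of 4177 bp and 500 bp instead of 10843 and 1437, and 5.69 points near the starts minus the rest at Zic5 and Zic2 in MEF-1. Thinning to 10 reads left 0 and 0 called pairs by Fisher's exact test in MEF-1 and MEF-2, so depth limits that comparison. Levels of pooled reads gave 35.7, 34.0 and -15.2 points at Zic1, Zic4 and Zic2, and -2.82 points near the starts of Zic5 and Zic2 in MEF-1. With 1 kb upstream the differences were 9.33 at Zic1, 0.0244 at Zic5 (reversed) and -18.4 at Zic2. Coverage ratios scaled to all CpGs were 0.965 (exact permutation p = 0.154) and 1.02 (exact permutation p = 0.689, reversed), and the ratio at Zic1 and Zic4 without MEF-1 clonal line 2 and MEF-2 clonal line 3, an alternative added after seeing the data, was 0.957 (exact permutation p = 0.0823). Blocks at Zic5 and Zic2 covered 614 bp at a difference of 40 points and 2569 bp with CpGs of 30 pooled reads, also added later. With the latter CpGs the blocks at Zic1 and Zic4 covered 16245 bp instead of 10843, which counted as unchanged. Called genes numbered 686 with at least 30 CpGs and 8723 without a minimum difference, instead of 1239. Replicate numbers did not pair the lines (correlations from -0.00432 to 0.00353, with 0 MEF-1 lines and 1 MEF-2 line nearest to their own number), and with a replicate block 205 CpGs (155 and 50) were called instead of 208, and 1239 genes.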
